A study of Rattus norvegicus with 6 samples.

Results

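The genes of store-operated calcium entry and of the intracellular calcium stores were followed in RBL-2H3 cells, which come from a rat basophilic leukemia and serve as a model of mast cells. The set was chosen by gene symbol and holds 10 genes: the sensors Stim1 and Stim2, the channels Orai1, Orai2 and Orai3, the release channels Itpr1, Itpr2 and Itpr3, and the pumps Atp2a2 and Atp2a3. Of these, 9 had a row in a table of 18286 genes, and Itpr2 was not analysed here. RNA was sequenced from 2 groups of 3 libraries each, a control group whose treatment label is none and a group labelled DHC, for dihydrocoumarin, a lactone found in Melilotus officinalis. The labels give both groups the same protocol, a 12 h sensitization with IgE against dinitrophenyl at 50 ng/ml and then 4 h with the antigen DNP-HSA at 100 ng/ml. Dose and exposure time of DHC are not stated, and beyond the shared protocol nothing says whether the control cells received IgE and antigen. Values with DHC are therefore compared with the control as labelled. RBL-2H3 is 1 tumour line, and the labels do not tell whether replicate libraries were grown as separate cultures. All p-values therefore rest on library-to-library spread, part of which may be technical.

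Store-operated calcium entry is the main route by which antigen raises calcium in mast cells. Crosslinking of the IgE receptor activates phospholipase C, the IP3 it makes opens IP3 receptors in the endoplasmic reticulum, and the store empties. STIM proteins in the store's membrane sense the loss of luminal calcium, gather where that membrane lies close to the cell surface and open the ORAI channels there, while SERCA pumps return calcium to the store. The sustained entry drives degranulation and, through calcineurin and NFAT, cytokine transcription.

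The libraries held between 29084976 and 34170922 reads assigned to genes in the control group and between 29190987 and 31299551 in the DHC group. Levels are given in RPKM, reads per kilobase of a gene's summed exons and scaled to the total reads of the library, so they may be compared between genes as far as the annotated exon lengths hold. Mast cell genes were present, with the IgE receptor chain genes Fcer1a at 106.7 and Ms4a2 at 320.9 RPKM in the control group. Of 10 mast cell markers tested, 5 fell with DHC and 1 rose, beside 16.1% lower and 18.4% higher over all genes tested. The summed level of the 12 markers in the table was 1063 to 1093 RPKM in control and 729 to 757 RPKM in DHC libraries. Most of that difference was Gata2, at 344.6 ± 10.3 and 69.9 ± 1.90 RPKM. The others that fell were Kit (114.7 ± 7.36 to 64.4 ± 4.02 RPKM), Il1rl1 (48.5 ± 2.75 to 14.9 ± 0.119), Gata1 (36.0 ± 2.66 to 15.2 ± 0.617) and Hdc (47.3 ± 1.37 to 38.2 ± 4.08). Fcer1a, Fcer1g, Cpa3 and Mcpt1 did not pass, and Ms4a2 was the 1 that rose. Under scaling by trimmed means of log ratios 0 of these markers passed as higher and 5 as lower. Of 16 markers of other cell types in the table, 11 lay below 1 RPKM in every library. The platelet genes Pf4 and Itga2b and the T cell gene Cd3e were the most expressed of the remaining 5. Of these 5, all tested, Cd3e rose from 34.6 ± 2.85 to 41.8 ± 1.69 RPKM (limma adjusted p = 0.0209) and none fell. Under scaling by trimmed means 0 of the 5 passed as higher. The summed level of the 16 was 982 to 1148 RPKM in control and 1027 to 1235 RPKM in DHC libraries. Genes of the mitochondrial chromosome took 3.34% to 3.53% of control reads and 3.91% to 4.14% of DHC reads. The part of these shifts in the results below was not tested, and in bulk RNA a loss of cells of a type and less RNA per cell cannot be told apart. The libraries numbered 1 in both groups stood apart from the others on the second principal component (12.8% of the variance), and values without them are given for the members that passed the test, and for other named calcium genes where the call ended.

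Both expressed channel genes were 2.08- to 2.09-fold lower with DHC, while neither sensor gene passed the test and both pump genes were slightly higher, a call that depended on the scaling between libraries. Differences were tested with limma on log2(RPKM + 1) over the 10667 genes whose mean reached 1 RPKM, with Benjamini-Hochberg adjustment and a threshold of 0.05. Of the 8 members that passed this filter on low values, 2 were lower and 2 higher, and Orai3 lay below it. Over all genes tested, 34.5% passed, with 16.1% lower and 18.4% higher. Control and DHC libraries were fully separated for 5 of the 8 members and for 49.7% of all genes tested: 3 higher, beside 28.1%, and 2 lower, beside 21.6%. Counts over 8 genes are too small to be set apart from these shares.

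Orai2 fell the most. Its control libraries stood at 16.4, 15.2 and 13.5 RPKM and its DHC libraries at 7.60, 6.86 and 7.14 RPKM. All DHC values thus lay well below the lowest control value, with at least 878 reads behind each. The means were 15.0 ± 1.48 and 7.203 ± 0.376 RPKM (SD, n = 3 per group), 2.09-fold lower with DHC, and the log2 difference was −0.96 ± 0.08 (SE, 95% interval −1.16 to −0.77, limma adjusted p = 0.000173). Among the 10667 genes tested, 233 had a lower log2 difference. Without the libraries numbered 1 the difference was −0.94 (adjusted p = 0.00193). ORAI2 forms calcium channels and can join ORAI1 in mixed ones. In the table it is annotated on the rat build Rnor_6.0 at chromosome 12, 23544287 to 23564569, plus strand, with 4210 bases of exon, and the values cover all annotated exons of the gene, as they do for every member.

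Orai1, which encodes the pore of the classical calcium release-activated channel, fell by a similar factor. It stood at 5.86, 8.64 and 9.42 RPKM in control and at 3.27, 3.50 and 4.73 RPKM in DHC libraries. The groups did not overlap, but the control values spread over a wider relative range than those of any other member that passed the filter, and library 1 was the lowest of its group in both groups. The reads were fewer than for Orai2, 201, 282 and 361 against 109, 123 and 155. The means were 7.97 ± 1.87 and 3.84 ± 0.785 RPKM, 2.08-fold lower, with a log2 difference of −0.88 ± 0.18 (95% interval −1.29 to −0.47, limma adjusted p = 0.00770), which is smaller than the fold because of the added 1. Without the libraries numbered 1 it was −0.98 (adjusted p = 0.00704). Orai1 lies at chromosome 12, 38981927 to 38995570, minus strand, with 1122 bases of exon in the table, the shortest of the set.

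Orai3, the remaining channel gene, was barely expressed. It had 35, 40 and 69 reads in control and 48, 58 and 52 reads in DHC libraries, or 0.540 ± 0.162 and 0.625 ± 0.0431 RPKM. The groups overlapped, and with no filter on low values the limma adjusted p was 0.588 for a log2 difference of 0.08 (95% interval −0.13 to 0.30). No difference in Orai3 was detected within the spread of these libraries. Orai3 lies at chromosome 1, 199217016 to 199222851, plus strand.

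**Figure D1:**
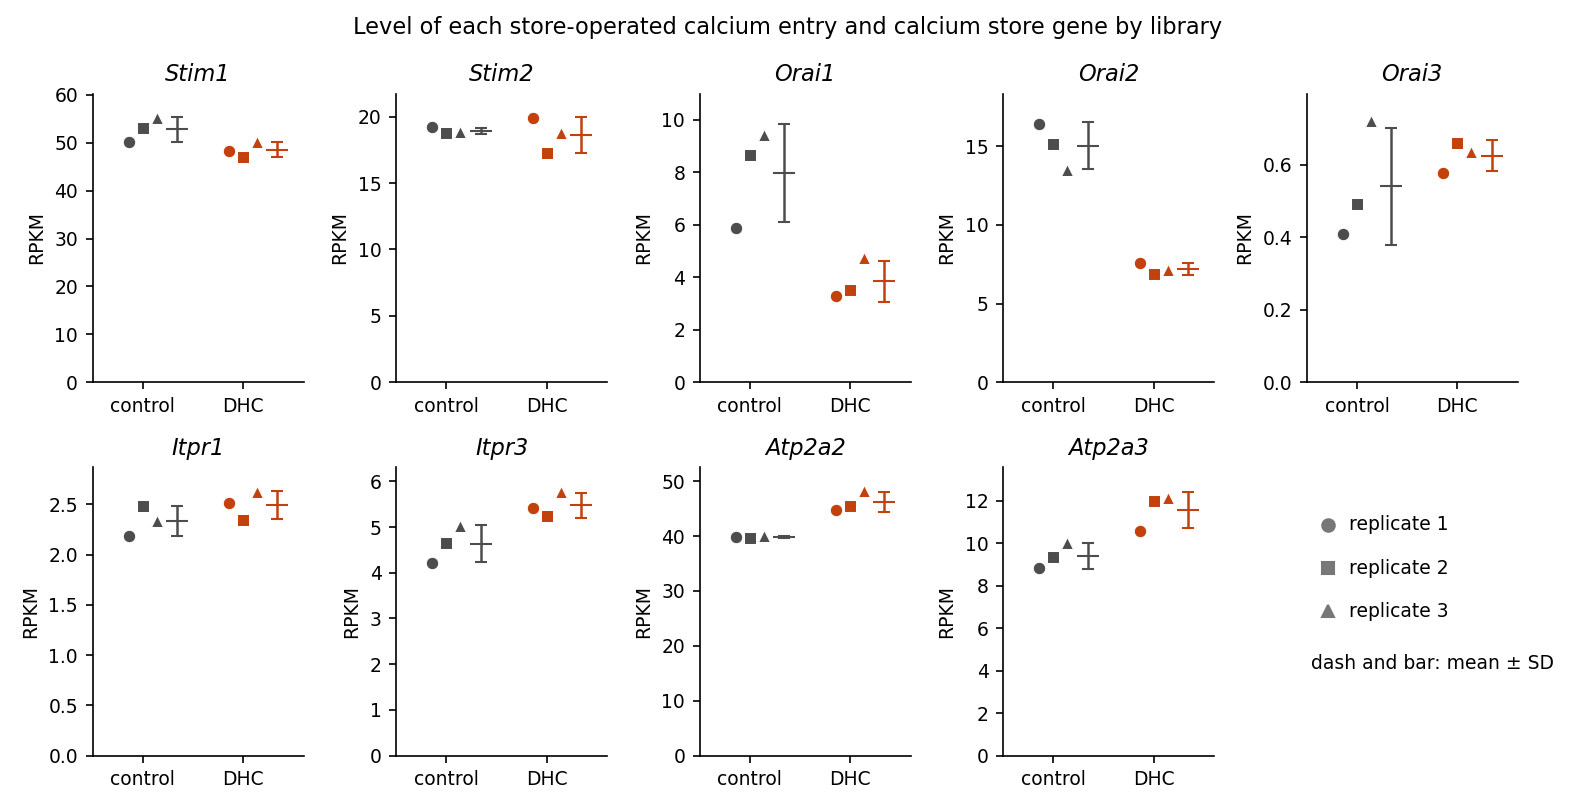
Level of each of the 9 members in every library, in RPKM on linear axes that start at 0, for 3 control and 3 DHC libraries; symbols give the replicate number and the dash with its bar the mean ± SD. Orai1 and Orai2 lie lower in all 3 DHC libraries than in any control library, Stim1, Stim2, Orai3 and Itpr1 overlap between the groups, and Itpr3, Atp2a2 and Atp2a3 lie higher with DHC.

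Added up per library, the 3 channel genes stood at 22.7, 24.3 and 23.6 RPKM in control and at 11.5, 11.02 and 12.5 RPKM with DHC, a 2.02-fold lower mean. The sum varied less between control libraries than either Orai1 or Orai2 alone (SD 0.795 RPKM), and the control library lowest in Orai1 was the highest in Orai2. The shares of Orai1 and Orai2 in the sum overlapped between the groups. Orai2 gave 64.0% ± 7.76 of it in control and 61.9% ± 4.65 with DHC (exact two-sided permutation test, p = 0.6), and Orai1 33.7% ± 7.19 and 32.7% ± 4.69 (exact p = 0.9). The sign of either difference changed when single libraries were left out. Orai3 made up 1.80%, 2.02% and 3.05% of the sum in control and 5.04%, 6.003% and 5.08% with DHC, without overlap, while its own level overlapped between the groups. The exact permutation p was 0.1, the floor for 3 against 3 libraries, and 0.36 after adjustment over the 9 shares computed.

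The stretches just before the start sites are shown for Orai1, which fell, and for Atp2a2, which lies on the same chromosome and was higher, as the pair of called members on 1 chromosome with an entry in the RefSeq promoter table (assembly GRCr8). Both are 250 bases, 5′ to 3′ on the gene's strand, ending 1 base before the start, and capitals mark the octamer ATGCAAAT, a motif of POU factors. Orai1 is at chr12:39209031-39209280, minus strand, and Atp2a2 at chr12:39733269-39733518, plus strand.
Orai1: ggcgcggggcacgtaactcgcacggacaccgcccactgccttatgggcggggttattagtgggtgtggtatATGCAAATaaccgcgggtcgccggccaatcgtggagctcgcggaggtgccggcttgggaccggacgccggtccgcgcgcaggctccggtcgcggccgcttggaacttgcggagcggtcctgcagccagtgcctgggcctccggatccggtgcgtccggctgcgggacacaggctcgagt
Atp2a2: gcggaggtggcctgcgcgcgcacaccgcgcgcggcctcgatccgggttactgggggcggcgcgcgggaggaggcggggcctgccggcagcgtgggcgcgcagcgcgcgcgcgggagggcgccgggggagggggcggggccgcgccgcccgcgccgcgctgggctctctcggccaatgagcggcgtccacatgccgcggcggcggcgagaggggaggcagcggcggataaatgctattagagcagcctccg
Both stretches are rich in G and C, 69.6% and 80.0% of bases, above 91.3% and 98.9% of all 33469 such windows. Of the 10 members, 9 were matched by symbol, all but Orai2. None of the 9 windows held, on either strand, the GATA motifs AGATAA (10.3% of all windows) or TGATAA (7.97%) or the NFAT-like GGAAAA (21.6%). The E-box CACGTG occurred in the window of Itpr3 only (5.59% of all). The octamer, searched after the sequences had been seen, occurred in those of Orai1, 179 bases before the start, and Itpr3 (1.56% of all), with no overlap with another match. These are matches of letters in short windows and say nothing of binding.

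Neither sensor gene passed the test. Stim1, the main sensor of store depletion and the most abundant member, was at 50.1, 53.1 and 55.3 RPKM in control and at 48.3, 47.1 and 50.2 RPKM with DHC. The highest DHC value lay just above the lowest control value. The means were 52.8 ± 2.59 and 48.6 ± 1.59 RPKM, with a log2 difference of −0.12 ± 0.05 (95% interval −0.24 to 0.01, limma adjusted p = 0.123). It passed as lower once the libraries had been rescaled by trimmed means of log ratios (−0.18, adjusted p = 0.0440). Stim2, which responds to smaller losses of store calcium, was at 19.2, 18.8 and 18.8 RPKM in control and 19.9, 17.2 and 18.8 RPKM with DHC. Its log2 difference of −0.02 ± 0.06 (95% interval −0.17 to 0.13, adjusted p = 0.81) bounds any change to less than that of either expressed channel gene. Stim1 lies at chromosome 1, 167373678 to 167533420, plus strand, and Stim2 at chromosome 14, 59198401 to 59323947, minus strand.

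The ratio of sensors to channels separated the groups. It is built from the same Orai values, so it restates their fall and is no further support for it. The mean Stim sum with DHC was 0.937 of control and the mean Orai sum 0.495. Summed Stim RPKM was 3.05, 2.96 and 3.14 times the summed Orai RPKM in the control libraries and 5.96, 5.84 and 5.52 times in the DHC libraries. The groups were far apart relative to their spread, and because the ratio is taken within a library it does not depend on scaling between libraries. On the log2 scale it was higher by 0.92 with DHC, 1.61 ± 0.04 against 2.53 ± 0.06 (SD, n = 3 per group). An exact permutation test (two-sided) gave p = 0.1, the lowest value possible here, and 0.2 adjusted over the 2 ratios computed. Leaving out any 1 library gave a difference between 0.90 and 0.95.

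**Figure D2:**
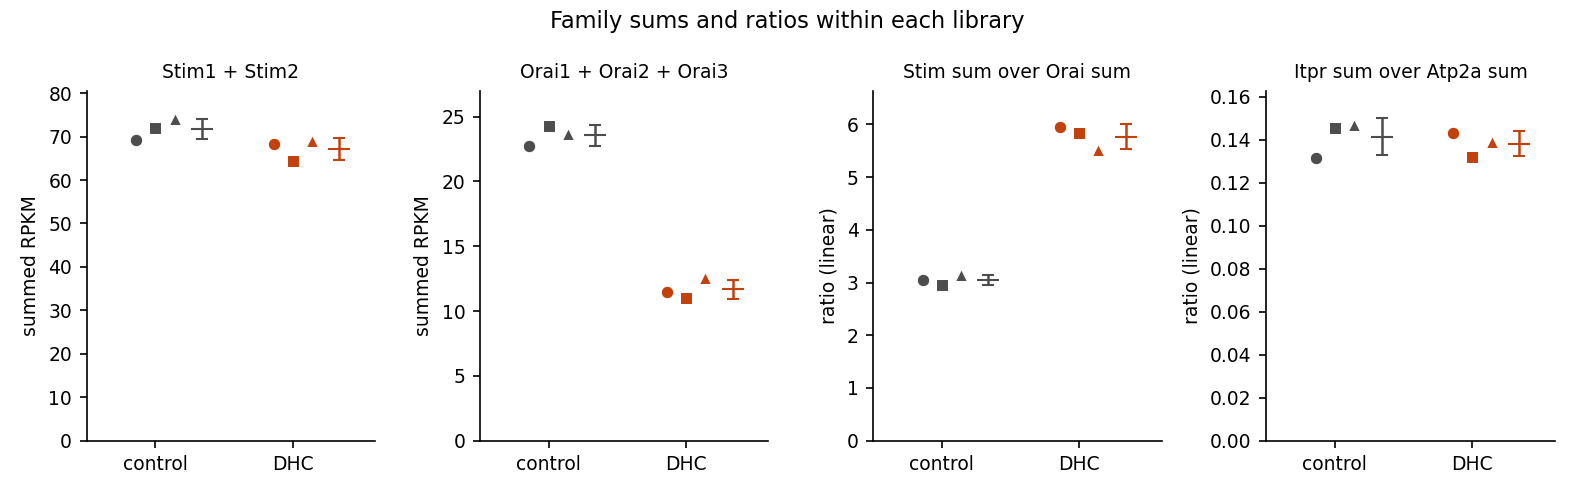
Summed RPKM of the sensor genes and of the channel genes, the ratio of these sums, and the ratio of summed Itpr1 and Itpr3 to summed Atp2a2 and Atp2a3, per library on linear axes from 0, with mean ± SD beside the 3 points of each group. The channel sum lies between 22.7 and 24.3 RPKM in control and between 11.02 and 12.5 RPKM with DHC, the ratio of sensors to channels between 2.96 and 3.14 and between 5.52 and 5.96, and the last ratio overlaps between the groups.

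Of the release channels, Itpr1 and Itpr3 were low and did not pass the test, and Itpr2 was not analysed. Itpr3, an IP3 receptor of lower IP3 affinity, was at 4.22, 4.65 and 5.03 RPKM in control and at 5.42, 5.23 and 5.77 RPKM with DHC, without overlap. The log2 difference was 0.20 ± 0.09 (95% interval 0.00 to 0.40, limma adjusted p = 0.108). It passed as higher with limma-voom on reads recovered from the values (0.24, adjusted p = 0.0238) and with values not divided by gene length (0.24, 0.0238). Itpr1, the form best known from neurons, was at 2.19, 2.49 and 2.33 RPKM in control and 2.52, 2.35 and 2.63 RPKM with DHC, which overlapped (0.07 ± 0.10, 95% interval −0.15 to 0.29, adjusted p = 0.615). Itpr1 lies at chromosome 4, 140247313 to 140580748, and Itpr3 at chromosome 20, 5646097 to 5711702, both on the plus strand. In the table an exon of each overlaps a gene on the other strand. The strand setting of the counting is not given in the sources used here. How reads in the shared stretch were assigned is therefore not known, nor how far they affect these values.

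The pumps that refill the store were slightly higher with DHC. Atp2a2, the SERCA2 pump gene found in nearly all cells, was at 39.8, 39.6 and 40.1 RPKM in control and at 44.8, 45.5 and 48.3 RPKM with DHC. Its control libraries were nearly equal and all DHC values lay above them. The means were 39.8 ± 0.239 and 46.2 ± 1.84 RPKM, 1.16-fold higher, with a log2 difference of 0.21 ± 0.05 (95% interval 0.10 to 0.32, limma adjusted p = 0.0133, and 0.0233 without the libraries numbered 1). Atp2a3, the SERCA3 pump gene of blood cells, was at 8.82, 9.36 and 10.0 RPKM in control and at 10.6, 12.0 and 12.1 RPKM with DHC, also without overlap. Its mean was 1.23-fold higher (0.27 ± 0.08, 95% interval 0.09 to 0.45, adjusted p = 0.0315, and 0.0339 without the libraries numbered 1). Neither call held with trimmed-mean scaling (limma adjusted p = 0.0637 for Atp2a2 and 0.0863 for Atp2a3) or by median-of-ratios factors (0.0502 and 0.0732). Both held by upper quartile factors (0.0185 and 0.0392). The Atp2a3 call also ended with no filter on low values (0.0596) and without control library 1 (0.0808) or 2 (0.0817) or DHC library 2 (0.104) or 3 (0.0977). Atp2a2 lies at chromosome 12, 39553903 to 39603326, and Atp2a3 at chromosome 10, 59529785 to 59560433, both on the plus strand.

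The ratio of the release channels Itpr1 and Itpr3 to the pumps overlapped between the groups, with Itpr2 not included. Summed Itpr1 and Itpr3 RPKM divided by summed Atp2a2 and Atp2a3 RPKM was 0.132, 0.146 and 0.147 in control and 0.143, 0.132 and 0.139 with DHC (exact two-sided permutation p = 0.6). Within the pumps Atp2a2 made up 80.9% ± 0.911 in control and 80.0% ± 0.846 with DHC (exact p = 0.2). Atp2a1, the muscle form of the pump, had 40, 38 and 20 reads in control and 62, 31 and 53 in DHC libraries, and its log2 difference of 0.43 did not pass (adjusted p = 0.231).

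**Figure D3:**
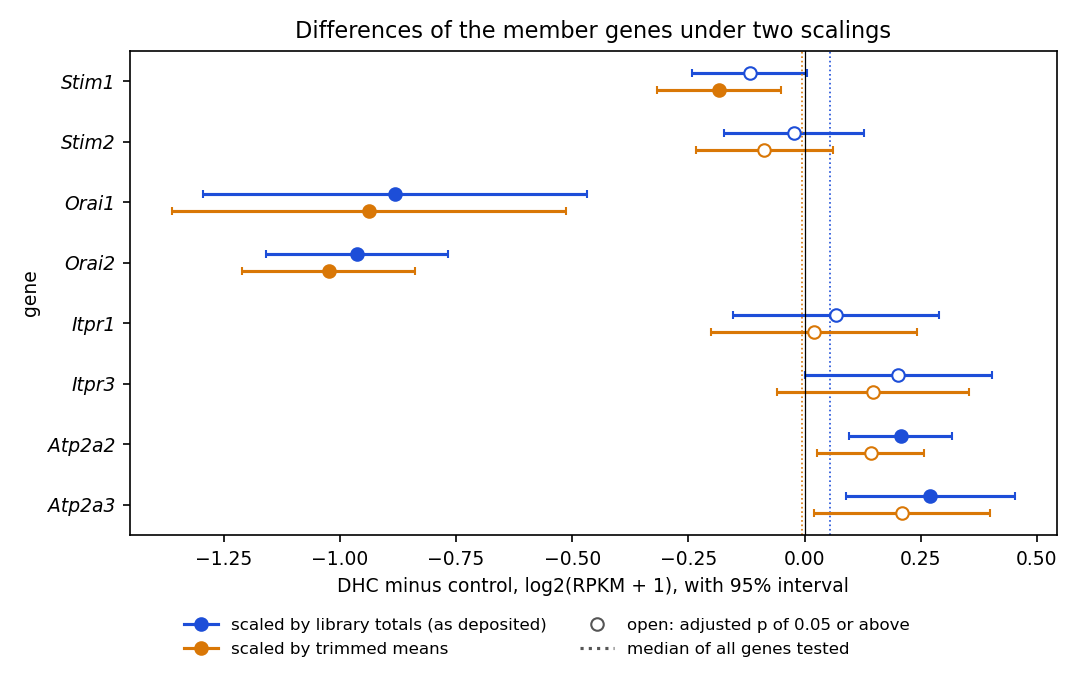
Difference between DHC and control for the 8 tested members on the log2(RPKM + 1) scale, with 95% intervals from limma, for values scaled by library totals and by trimmed means; filled points have an adjusted p below 0.05 and dotted lines mark the median of all genes. Orai1 and Orai2 stand between −1.02 and −0.88 and are filled under both scalings. Stim1 is filled only under trimmed means, and Atp2a2 and Atp2a3 only under library totals.

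In control libraries the order of levels was Stim1, Atp2a2, Stim2, Orai2, Atp2a3, Orai1, Itpr3, Itpr1 and Orai3, and of the neighbours in this order only Atp2a3 and Orai1 overlapped. With DHC it was Stim1, Atp2a2, Stim2, Atp2a3, Orai2, Itpr3, Orai1, Itpr1 and Orai3, and only Stim1 and Atp2a2 overlapped. Orai2 thus passed from above to below Atp2a3, and Orai1 from above to below Itpr3.

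The 5 genes outside the set whose profile over the 6 libraries was closest to that of Orai2, by Euclidean distance between log2(RPKM + 1) values centred on each gene's mean, were Setd7 (0.0895), Cep44 (0.0905), Arap3 (0.114), Rarg (0.118) and Il18rap (0.123). Setd7, a lysine methyltransferase gene, stood at 28.4 ± 2.27 RPKM in control and 14.4 ± 0.522 RPKM with DHC. Il18rap, a chain of the interleukin-18 receptor, stood at 25.03 ± 1.71 and 12.0 ± 1.18 RPKM. All 5 had log2 differences between −0.93 and −1.01. With 6 libraries in 2 groups, any gene with a like group difference comes out close by this measure.

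The calcium genes around the set were described by 6 lists with 61 tested genes, of which 14 were higher and 8 lower, beside 18.4% higher and 16.1% lower over all genes tested. Their median log2 difference was 0.07 against 0.05 over all genes. Under scaling by trimmed means 7 were higher and 9 lower, beside 12.0% and 19.8% of all genes. The same shares stand beside each list below, and most lists hold too few tested genes to be set apart from them. Of the 61 tested genes, none had as low a log2 difference as Orai1 or Orai2. Listed genes below the filter were not tested. Most of them had a higher mean RPKM with DHC and fewer a lower one, many with few reads. An example of each is given. Pln, the pump inhibitor phospholamban, had 98, 72 and 63 reads in control and 46, 40 and 22 with DHC, a 2.10-fold lower mean RPKM. It is named after its values were seen. The channel gene Trpc1 had 78, 67 and 99 reads in control and 116, 155 and 132 with DHC, a 1.73-fold higher mean RPKM.

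Proteins that hold calcium in the store, or help fold proteins there, and other release channels formed the longest list. Of 18 tested 9 were higher and none lower (median 0.20), beside 18.4% higher and 16.1% lower over all genes tested. Under trimmed means 5 were higher and 1 lower, beside 12.0% and 19.8%. Hspa5, the chaperone BiP, rose from 548.6, 576.9 and 605.0 to 801.1, 870.6 and 848.9 RPKM, 1.46-fold (limma adjusted p = 0.000269). Tmco1, a channel that lets calcium out of an overfilled store, rose 1.46-fold from 120.2 ± 7.69 RPKM (0.000339), and Canx, the lectin chaperone calnexin, 1.196-fold (0.00165). Calr, the main calcium buffer of the store, was far above all members at 3080 ± 325 and 3307 ± 275 RPKM and did not pass (0.405). Ryr1, a ryanodine receptor gene, was at 2.51 ± 0.106 and 2.60 ± 0.0910 RPKM (0.799), and Ryr3 had at most 24 reads in a library.

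Of 10 tested regulators of STIM and ORAI or of their redox and membrane setting, 2 were higher and 3 lower (median 0.05). Saraf, which switches store-operated entry off, rose 1.18-fold, from 29.6 ± 0.474 to 35.0 ± 2.57 RPKM (limma adjusted p = 0.0228). That call ended in 7 alternatives. Among them were trimmed means (0.0793) and the sets without control replicate 1 (0.0519), 2 (0.0537) or 3 (0.0641) or DHC replicate 2 (0.0730) or 3 (0.0698). Pdia3, a disulfide isomerase of the store, rose 1.21-fold (0.00604), and Ero1a, an oxidase of oxidative folding, fell 1.36-fold from 51.6 ± 3.59 RPKM (0.00255).

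Of 4 tested extrusion genes 2 fell (median −0.07). Atp2b1, the main plasma membrane calcium pump gene here, fell 1.21-fold, from 71.5, 65.1 and 67.2 to 56.0, 55.3 and 57.4 RPKM (limma adjusted p = 0.00549), while Atp2b4, another such pump, was below 1 RPKM. Slc24a3, a sodium, potassium and calcium exchanger gene, fell from 16.0 ± 1.25 to 12.9 ± 0.861 RPKM (0.0246), a call that ended with no filter on low values (0.0504) and without control replicate 1 (0.0667) or 2 (0.0767) or DHC replicate 2 (0.0840) or 3 (0.0769). Of 9 mitochondrial calcium genes 2 fell (median −0.05). Mcu, the pore of the mitochondrial uniporter, fell 1.31-fold from 49.7 ± 1.26 RPKM (0.00152), and Letm1, an inner membrane ion exchanger gene, 1.29-fold from 61.5 ± 2.27 RPKM (0.00219).

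Of 5 tested genes of other calcium-permeable channels 1 was higher (median −0.03). It was Trpm7, a channel fused to a kinase, at 12.4 ± 0.561 and 15.0 ± 1.40 RPKM (limma adjusted p = 0.0415). The call ended in 9 alternatives, among them trimmed means (0.0915) and no filter (0.0777). It also ended without any 1 library (0.0555 to 0.116) except DHC replicate 3, and without both libraries numbered 1 (0.0840). Trpv2 stood at 12.1 ± 0.842 and 11.8 ± 0.729 RPKM (0.753), and Trpc1 and Trpm4 were below the filter. Of 15 genes of IP3 supply and removal 2 were higher and 1 lower (median 0.03). Plcb3, a phospholipase C driven by G proteins, fell from 26.2, 27.6 and 24.0 to 16.4, 16.2 and 15.5 RPKM, 1.62-fold (0.000307). Plcg2, the more abundant of both phospholipase C gamma genes, was at 47.0 ± 3.41 and 44.9 ± 3.03 RPKM (0.511). Pip5k1c, a kinase that makes the phospholipase substrate, rose 1.32-fold (0.00578), and Ahcyl2, a relative of an IP3 receptor binding protein, 1.25-fold (0.0471). The Ahcyl2 call ended in 10 alternatives, among them trimmed means (0.0946) and no filter (0.0928). It also ended without any 1 of the 6 libraries (0.0682 to 0.151) or both numbered 1 (0.118).

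**Figure D4:**
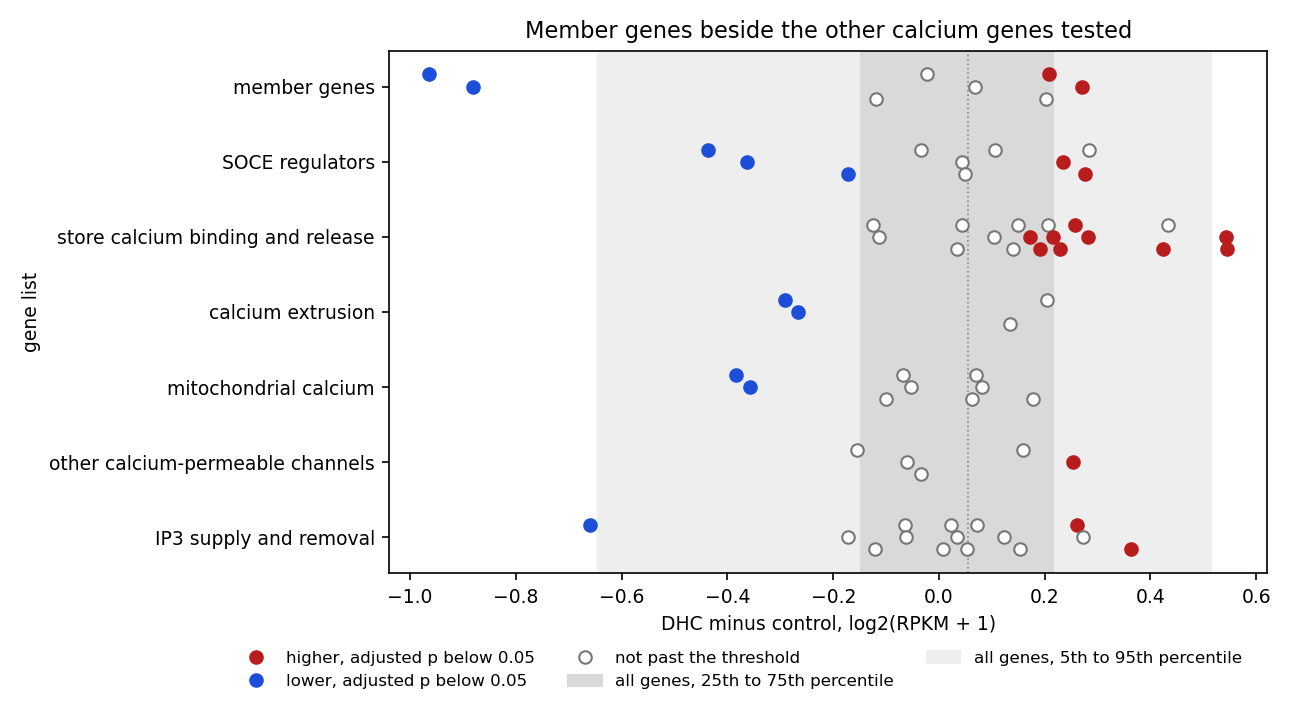
Differences between DHC and control on the log2(RPKM + 1) scale for the 8 tested members and the 61 tested genes of 6 lists of other calcium genes, 1 point per gene, coloured where the adjusted p is below 0.05, over bands that hold the middle of all 10667 genes. Orai1 and Orai2 are the points farthest to the left, beyond the 5th percentile of −0.65, and the list of store calcium binding and release genes has coloured points only to the right under scaling by library totals (9 higher, against 5 higher and 1 lower under trimmed means).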

How the data were processed

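Total RNA was extracted with Trizol and sequenced as Illumina libraries, per the labels' protocols. The build Rnor_6.0, edgeR 3.12.1, Trimmomatic 0.36 and Subread 1.5.1 (featureCounts) are named per the submitters' processing notes. Aligner, annotation release and strand setting: not given in the sources used here. The deposited table holds 1 RPKM value per gene and library with exon coordinates and summed exon length. The unit was inferred: multiplied by exon length, the authors' RPKM values fell on multiples of a step per library, within 0.01 read for 100% of values, which returned reads and totals.

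Differences were fitted with limma 3.58.1 (trended variance, R 4.3.3) on log2(RPKM + 1) over genes whose mean reached 1 RPKM, and folds are ratios of mean RPKM. The pseudocount of 1 understates the change of low genes. Family shares and ratios were compared with exact permutation tests. The method was also run on simulated reads with the same dispersion for every gene and no effect of replicate number. That run therefore cannot tell how the method deals with the spread of these libraries. Members and lists were chosen with earlier results of these data known. Named genes were the members, up to 3 called genes with the lowest p per list without overlap between groups, fixed paralogs, and the 5 genes nearest to Orai2. Calr, Plcg2, Pln, Pf4, Itga2b and the remaining tested mast cell markers were added after their values were seen. The mast cell list named Gata2, Il1rl1 and Gata1, all lower, and the list of 12 mitochondrially encoded genes Mt-nd4, Mt-co1 and Mt-cyb, all higher, with 5 higher in all. Replicates differed by more than sampling noise (chi-square per degree of freedom 4.52 to 15.9). The alternatives tried were 3 other scalings between libraries, other pseudocounts and filters, values without gene length, limma-voom, robust variance, a replicate block and leaving out libraries.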

Additional observations from a re-analysis of the deposited data

How the results depend on the processing

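The falls of Orai1 and Orai2 passed the threshold under all 18 alternatives, with log2 differences of −1.06 to −0.76 (adjusted p 0.000596 to 0.0322) and −1.06 to −0.90 (5.88e-08 to 0.00193). The small rises depended on the scaling: under trimmed means and median-of-ratios factors 0 members were higher, with Atp2a2 at 0.14 and 0.15 and Atp2a3 at 0.21 and 0.22, and with no filter on low values 1 was, with Atp2a3 at 0.27 and the same difference as reported. With upper quartile factors 2 members were higher. Leaving out 1 library each gave 1 to 2 higher members and 0.23 to 0.33 for Atp2a3. Stim1 passed under trimmed means (−0.18), and Itpr3 passed without gene length and with limma-voom (0.24 in both). Stim2 ranged from −0.070 to 0.030 over the sets without 1 library, positive without DHC replicate 2, and Ryr1 to −0.014 under trimmed means and −0.0072 under median-of-ratios factors. Leaving out single libraries gave −4.98 to 2.03 percentage points for the share of Orai1 and −5.50 to 2.14 for that of Orai2. Of all genes, 1968 were higher and 1717 lower as reported, 1285 and 2114 under trimmed means, 1365 and 2048 under median-of-ratios factors, and 1201 to 1746 were higher without 1 library. Of the listed calcium genes, 7 were higher under trimmed means and 8 under median-of-ratios factors instead of 14, and 6 to 13 were higher and 5 to 6 lower without 1 library. The cause was not tested. The median difference of all genes was 0.05 as reported and −0.00 under trimmed means.

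The labels link same-numbered libraries only by that number. Their deviations from the group means correlated at 0.23, −0.05 and 0.08, and not every library correlated best with its own number. On the second principal component, control and DHC libraries of the same number lay close. They stood at 12.1 and 11.5 for number 1, −2.49 and −2.15 for 2, and −10.7 and −8.35 for 3. Whether they share a preparation was not tested. A replicate block gave adjusted p-values of 0.00250 for Orai1, 0.000556 for Orai2, 0.0118 for Atp2a2 and 0.0172 for Atp2a3 (limma), changed no member's call and left 2426 genes higher and 1907 lower. The planned quasi-likelihood test of counts was not run, since the deposited unit is RPKM. Of the members in the table Orai3 had the fewest reads, at most 69 in a library; how far depth limits its precision was not tested.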
